A study of Rattus norvegicus with 8 samples.

Results

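The insulin-like growth factor (IGF) axis was followed in the healing medial collateral ligament of the rat knee, with and without weight bearing. Its 10 listed genes were the ligands Igf1 and Igf2, the receptors Igf1r and Ghr, and the binding proteins Igfbp1 to Igfbp6. Members were taken as every probe set of the array that carried 1 of these symbols and no other. This gave 26 of 8799 probe sets, standing for 9 of 4736 named genes: 11 for ligands, 5 for receptors and 10 for binding proteins. No probe set carried Igfbp4 as its only symbol, so that gene was not analysed here. Of the 26, 17 lay above the low-signal filter and were tested, among 5244 tested in all, and 9 lay under it and are given by their values.

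IGF1 and IGF2 are small secreted proteins related to insulin, and both act through the tyrosine kinase receptor encoded by Igf1r. Growth hormone, through its receptor Ghr, raises Igf1 transcription in liver and in other tissues. The binding proteins hold IGFs in the circulation and in the matrix, which can keep a ligand from its receptor or store it near cells. In tendon and ligament, IGF1 is known for stimulating fibroblast division and collagen synthesis.

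The 8 arrays fell into 4 groups of 2, all of ligaments taken at 3 weeks. Unloaded healing rats had both medial collateral ligaments disrupted and were tail-suspended, which lifts the hind legs off the ground, from 24 h after the operation. Loaded healing rats had the same injury and bore weight. Unloaded control rats were tail-suspended and had no operation, and loaded control rats had a sham operation. Unloading and sham surgery are therefore confounded between the controls. Nothing in the labels says whether the 2 arrays of a group were separate animals, pools or repeats, so the p-values reflect only how far these arrays differ, which may be technical. In bulk tissue, fewer cells of a type and less RNA per cell cannot be told apart.

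Both unloaded control arrays were unlike the other 6. Their Pearson correlation with the other 6 across tested probe sets was 0.492 to 0.608, against 0.761 to 0.872 among those 6. The top of their intensity range was lower too. Their 99th percentiles lay between 5494 and 5584 units, where the other 6 arrays reached 9218 to 11289. How far this narrower range bears on the values of single genes was not tested. The ligament fibroblast markers on the array (8 of the 11 listed) summed to 47730 and 63378 signal units in unloaded healing and 104219 and 122115 in loaded healing. The sum was 2489 and 2784 in unloaded controls and 84510 and 104717 in loaded controls. None of the 8 was at 0, and 7 of them, Col1a1 among them, were lower on both unloaded control arrays than on every other array. The type I collagen gene Col1a1 read 699.0 and 763.1 there, against 59573.3 and 75948.8 in loaded controls, so the labelled tissue's defining transcripts were low on these arrays. Macrophage markers (6 of 8 on the array, none at 0) summed to 6566 and 7025 in unloaded healing, 25716 and 29158 in loaded healing, 3534 and 3720 in unloaded controls, and 5321 and 5539 in loaded controls. Not every macrophage marker followed the sum. Cd14 was highest on both unloaded control arrays (1872.5 and 1863.8). Ctss read 734.8 and 770.0 in unloaded controls, above the 673.3 and 673.1 of loaded controls. The skeletal muscle sum was 10571 and 12908 in unloaded healing and 12767 and 18043 in loaded healing. It was 4863 and 4999 in unloaded controls and 9457 and 9748 in loaded controls. Markers lower on both unloaded control arrays than on all others were 3 of 6 for macrophages, 3 of 9 for skeletal muscle and 0 of 5 for adipocytes. For endothelium they were 0 of 4, for erythroid cells 1 of 2, for cartilage 0 of 2 and for smooth muscle 1 of 4. Higher on both loaded healing arrays than on all others were 4 of 8 fibroblast, 4 of 6 macrophage, 2 of 9 skeletal muscle, 2 of 5 adipocyte and 2 of 4 smooth muscle markers, and 0 of the endothelial, erythroid and cartilage markers. The adipocyte sum was 8565 and 12579 in unloaded healing, 14272 and 15118 in loaded healing, 13717 and 14009 in unloaded controls, and 11085 and 12852 in loaded controls. The smooth muscle sum was 1940 and 1978 in unloaded healing, 3049 and 3452 in loaded healing, 1989 and 2340 in unloaded controls, and 1822 and 2450 in loaded controls. The endothelial sum was 1293 and 4581 in unloaded healing and 1623 and 4971 in loaded healing. In unloaded controls the endothelial sum was 4948 and 5731, and in loaded controls 1409 and 4867. The lipid carrier Fabp4, among the adipocyte markers, read 735.5 and 592.7 in loaded healing and at most 75.2 elsewhere. Fabp4 lay under the low-signal filter, as did Plin1 and Cfd. Lpl was also highest on both loaded healing arrays, and Lep, Plin1 and Cfd were not. Lep, the brightest of them, read 9000.2 and 7726.2 in loaded healing and 12512.4 and 12204.5 in unloaded controls. The sums are given with the lower array first.

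Of the 17 tested IGF axis probe sets, the 1 of Igfbp6 and 1 of the 3 of Igf1 passed the adjusted threshold of 0.05 in at least 1 comparison. Igfbp6 fell in loaded healing, rose in unloaded healing against unloaded control, and was lower in unloaded than in loaded controls. The Igf1 probe set moved the same way in the comparisons that involve the unloaded controls. The RefSeq upstream sequences of these genes are shown because these are the genes with a called probe set. The other 4 probe sets of Igf1 did not share the called one's pattern. Each is the 250 bases before the annotated start on rat assembly GRCr8, plus strand, 5′ to 3′, at chr7:135154669-135154918 for Igfbp6 and chr7:24172282-24172531 for Igf1, with E boxes (CANNTG, a motif that reads the same on both strands) in capitals.
Igfbp6: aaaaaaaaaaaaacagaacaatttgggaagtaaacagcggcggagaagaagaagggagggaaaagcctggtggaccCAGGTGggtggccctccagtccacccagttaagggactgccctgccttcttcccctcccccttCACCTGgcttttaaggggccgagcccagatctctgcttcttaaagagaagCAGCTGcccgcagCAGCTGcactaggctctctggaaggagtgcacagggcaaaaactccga
Igf1: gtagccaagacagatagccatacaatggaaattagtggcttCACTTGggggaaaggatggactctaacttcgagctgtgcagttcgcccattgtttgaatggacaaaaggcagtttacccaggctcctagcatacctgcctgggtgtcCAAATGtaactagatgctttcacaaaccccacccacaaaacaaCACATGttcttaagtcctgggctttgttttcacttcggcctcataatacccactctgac
There were 4 E boxes before Igfbp6 and 3 before Igf1, and 65.5% of all upstream windows of this length hold at least 1. A TATA box, spelled TATAAA, was not found on either strand in these windows, and 12.9% of all windows hold it. The letters CCAAT were absent on both strands too, where 34% of all windows hold them. So was a GC box, spelled GGGCGG, which 30.5% hold. The Igf1 window lies inside the annotated gene (chr7:24169608-24249446), which begins further upstream. Arrays measured transcripts only, so these matches describe the sequences and say nothing about binding.

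Igf1 was read by 5 probe sets that did not share a pattern. The brightest was M15481_g_at, with 1817.1 and 1526.7 signal units in unloaded healing, 1214.5 and 560.4 in loaded healing, 549.5 and 314.3 in unloaded controls, and 1443.8 and 1707.6 in loaded controls. Both unloaded control arrays lay below all 6 others. Of the 17 tested members 2 had this pattern, as did 10.4% of all tested probe sets. The probe set rose 3.70-fold in unloaded healing against unloaded control (log2 1.89 ± 0.40 SE, limma adjusted p = 0.0153, 2 arrays in each group throughout). It fell 3.49-fold in unloaded control against loaded control (log2 -1.80 ± 0.40, limma adjusted p = 0.0215). All folds include the offset of 45.8 added before the log, which shrinks those of dim probe sets. In unloaded healing against loaded control it read 0.08 ± 0.40, with a 95% interval of -0.81 to 0.98, and the arrays overlapped. For the rise, the difference was 1.52 without unloaded control 2, 1.76 without unloaded healing 1 and 2.01 without unloaded healing 2. The call was lost each time. It was also lost when the variance prior had no intensity trend (1.89, limma adjusted p = 0.0529). For the fall, the difference was -1.44 without unloaded control 2, -1.92 without loaded control 1 and -1.69 without loaded control 2, and again the call was lost. With the prior without the trend the difference was -1.80, not called (limma adjusted p = 0.0658). The fibroblast, macrophage and skeletal muscle marker sums were also lowest on the unloaded control arrays, although the macrophage marker Cd14 was highest there. The part of these sums in the Igf1 differences was not tested.

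In loaded rats, injury gave the same Igf1 probe set a log2 difference of -0.89 ± 0.40 (limma adjusted p = 0.436). Both loaded healing arrays lay below both sham arrays, and they differed from each other more than the sham arrays did. The healing effect in unloaded rats exceeded that in loaded rats by 2.77 ± 0.57 log2 units (limma adjusted p = 0.0160). This difference between effects uses the unloaded control arrays. Its call was lost without loaded control 2 (2.66), loaded healing 2 (2.24), unloaded control 2 (2.41) or unloaded healing 1 (2.65). It was also lost with spike-in scaling (2.20, limma adjusted p = 0.0518) and with the prior without the trend (2.77, 0.0649).

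The probe set M15481_at, designed from the same Igf1 sequence record, read 324.3 and 820.5 in unloaded healing, 221.3 and 1011.6 in loaded healing, 664.4 and 280.0 in unloaded controls, and 419.4 and 1279.5 in loaded controls. Array 2 read higher than array 1 in 3 of the 4 groups and lower in unloaded controls. The groups overlapped in every pairwise comparison, and the SE of each difference was 0.77 log2 units. The third tested Igf1 probe set, X06107_r_at, stayed between 358.6 and 706.4 on all 8 arrays. It read 573.1 and 418.6 in unloaded healing, 514.1 and 358.6 in loaded healing, 706.4 and 580.8 in unloaded controls, and 577.5 and 558.6 in loaded controls. Both unloaded control arrays were the highest, by a margin of a few units over loaded control 1, while those of M15481_g_at were the lowest. Unloaded controls above all 6 others were found for 1 of 17 tested members and 18.3% of all tested probe sets.

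Dim Igf1 probe sets gave a further picture. D00698_s_at, at the 20.8th percentile of mean signal, read 59.8 and 32.4 in unloaded healing, 284.2 and 123.6 in loaded healing, 45.8 and 68.0 in unloaded controls, and 144.9 and 204.3 in loaded controls. All 4 unloaded arrays lay below all 4 loaded ones. Fitted without the filter, unloading gave -1.38 ± 0.48 in healing ligament (limma adjusted p = 0.370) and -1.10 ± 0.48 in control ligament (limma adjusted p = 0.351). X06107_i_at read 55.5 and 70.7 in unloaded healing and 231.8 and 583.6 in loaded healing, with 247.4 and 84.4 in unloaded controls and 374.9 and 129.1 in loaded controls. Both dim probe sets were thus lower on the unloaded healing arrays than on the loaded healing arrays, the opposite direction to the log2 0.97 ± 0.40 of M15481_g_at (limma adjusted p = 0.406). The M15481_g_at value was 0.44 without loaded healing 2, 1.5 without loaded healing 1 and 0.49 with spike-in scaling.

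Igf2, the ligand of fetal growth that continues to be made in some adult tissues, did not pass in any comparison on its 5 tested probe sets. Its brightest, M17960_g_at, had 1904.7 and 2295.5 signal units in unloaded healing, 1641.8 and 1776.6 in loaded healing, 3250.3 and 2240.9 in unloaded controls, and 1554.6 and 2028.9 in loaded controls. Unloaded exceeded loaded arrays without overlap among healing and among control ligaments, by 0.29 ± 0.26 and 0.59 ± 0.26 log2 units (limma adjusted p = 0.771 and 0.266). The 95% interval for unloading in healing ligament was -0.29 to 0.86. Injury in loaded rats gave -0.06, with an interval of -0.63 to 0.52.

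The other Igf2 probe sets differed in direction. X17012mRNA_s_at read 1197.7 and 1296.8 in unloaded healing, 412.4 and 946.6 in loaded healing, 980.0 and 666.1 in unloaded controls, and 1096.0 and 706.2 in loaded controls. The unloaded healing arrays were the highest of the 8, and the difference from loaded healing was 0.94 ± 0.42 (limma adjusted p = 0.456). X16703_r_at read 688.5 and 530.7 in unloaded healing, 847.0 and 565.0 in loaded healing, 298.1 and 354.6 in unloaded controls, and 416.9 and 139.6 in loaded controls. All 4 healing arrays lay above all 4 control arrays, with a loaded difference of 1.33 ± 0.52 (limma adjusted p = 0.324) and an unloaded one of 0.81 ± 0.52 (limma adjusted p = 0.435). X16703_i_at, from the same sequence record, had 364.9 and 362.5 in unloaded healing, 202.5 and 270.7 in loaded healing, 515.0 and 333.0 in unloaded controls, and 454.3 and 300.7 in loaded controls, and its loaded difference had the opposite sign (-0.57 ± 0.48). M17960_at read 877.4 and 228.8 in unloaded healing, 633.5 and 535.0 in loaded healing, 1055.6 and 860.1 in unloaded controls, and 662.5 and 589.8 in loaded controls, with the unloaded healing arrays farthest apart. Unloaded healing against unloaded control gave -0.99 (limma adjusted p = 0.338). Without unloaded healing 1 this was -1.86 and called (limma adjusted p = 0.0365), and without unloaded healing 2 it was -0.11 (limma adjusted p = 0.925), so the value rests on which of the 2 arrays is kept. The dim probe set E00988mRNA_s_at spanned 87.9 to 238.5.

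**Figure D1:**
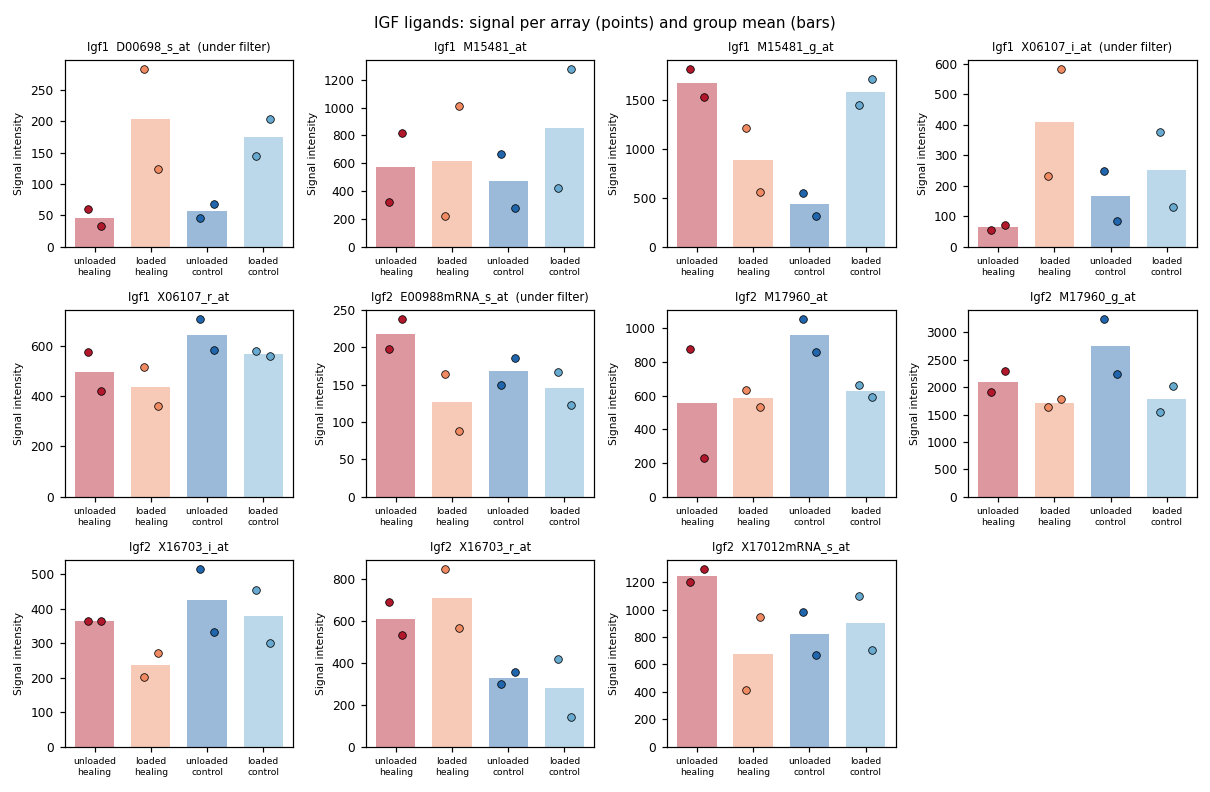
Signal intensity (linear scale, starting at 0) of the 11 probe sets of Igf1 and Igf2 in the 4 groups. Points are single arrays (n = 2 per group) and bars are group means. M15481_g_at of Igf1 was lowest on both unloaded control arrays (549.5 and 314.3), while the other Igf1 and Igf2 panels show different orders of the groups.

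Igf1r, the receptor for both ligands, was the steadiest member. Its tested probe set M27293_s_at read 745.9 and 779.2 in unloaded healing, 933.3 and 961.7 in loaded healing, 700.8 and 871.4 in unloaded controls, and 731.0 and 780.3 in loaded controls, a ratio of 1.37 between the highest and the lowest array. Both loaded healing arrays lay above all others. Loaded injury gave 0.31 ± 0.30 log2 units, with a 95% interval of -0.36 to 0.98 (limma adjusted p = 0.816), and unloading of healing ligament gave -0.30, with an interval of -0.97 to 0.37 (limma adjusted p = 0.803). The dim Igf1r probe set L29232_at spanned 98.6 to 243.8, and its highest values were on the unloaded control arrays.

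Ghr, the growth hormone receptor, had its highest signal in loaded healing on its tested probe set. S49003_s_at read 307.1 and 290.0 in unloaded healing, 572.9 and 769.1 in loaded healing, 268.5 and 282.0 in unloaded controls, and 177.6 and 197.5 in loaded controls. None of the groups overlapped, and the order of means was loaded healing, unloaded healing, unloaded control and loaded control. Loaded healing stood 1.61 ± 0.46 log2 units above loaded control (3.05-fold, limma adjusted p = 0.143). Unloaded healing differed from loaded healing by -1.04 ± 0.46 (limma adjusted p = 0.436) and from unloaded control by 0.10 ± 0.46 (limma adjusted p = 0.937). The difference between the healing effects was -1.51 ± 0.64 (limma adjusted p = 0.358). With both arrays above all 6 others in loaded healing, Ghr and Igf1r were 2 of 17 tested members, and 8.41% of all tested probe sets had that pattern. The macrophage and smooth muscle marker sums were also highest on both loaded healing arrays. Of the smooth muscle markers, Acta2 and Tagln were highest there. Myh11 was instead lowest on both loaded healing arrays (96.7 and 85.9), and Cnn1 read 198.0 and 649.1. The adipocyte sum was also highest in loaded healing, by a small margin over unloaded controls (14272 against 14009), while its brightest marker, Lep, was not. The part of these sums in the Ghr values was not tested.

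The remaining Ghr probe sets were among the dimmest of the array. Z83757mRNA_at, at the 1.2nd percentile, spanned 13.2 to 62.9. Z83757mRNA_g_at read 99.4 and 27.2 in unloaded healing, 9.2 and 15.8 in loaded healing, 106.7 and 101.7 in unloaded controls, and 58.3 and 58.8 in loaded controls. Its lowest group, at signals under the offset of 45.8, was the one where S49003_s_at was highest.

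**Figure D2:**
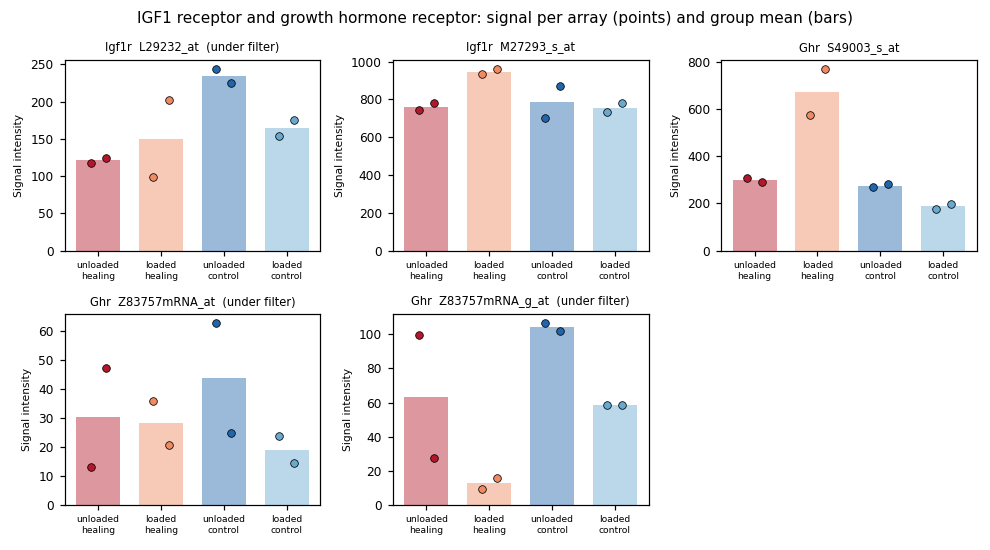
Signal intensity (linear scale, starting at 0) of the 2 Igf1r and 3 Ghr probe sets in the 4 groups. Points are single arrays (n = 2 per group) and bars are group means. Both loaded healing arrays of Ghr S49003_s_at (572.9 and 769.1) stood above the other 6, and Igf1r M27293_s_at stayed within 700.8 to 961.7.

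Igfbp6, a binding protein that prefers IGF2 over IGF1, was the member with the clearest differences. Its only probe set, M69055_at, averaged 1631 ± 173 signal units in unloaded healing, 856 ± 49.2 in loaded healing, 654 ± 43.4 in unloaded controls and 2009 ± 16.8 in loaded controls (SD, n = 2 each). The single arrays read 1753.3 and 1508.2 in unloaded healing, 890.6 and 821.0 in loaded healing, 685.1 and 623.7 in unloaded controls, and 2020.5 and 1996.7 in loaded controls. No groups overlapped. From high to low the order was loaded control, unloaded healing, loaded healing and unloaded control.

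In loaded rats Igfbp6 fell 2.28-fold in healing against sham ligament (log2 -1.19 ± 0.25, 95% interval -1.76 to -0.62, limma adjusted p = 0.0492). It was the 1 of 17 tested members called lower there, where 0.992% of all tested probe sets were called lower. There 0 members were called higher, against 1.03% of all. The call stood close to the threshold and ended under 15 of 20 alternatives, including each of the 8 left-out arrays (adjusted p = 0.0605 to 0.222). Scaled to the spike-in controls, the value was -0.80 and the median of all tested probe sets moved to 0.34, against -0.03 as deposited. The part of the marker sums that were highest in loaded healing in the lower Igfbp6 signal was not tested.

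In unloaded rats Igfbp6 rose 2.39-fold in healing against control ligament (log2 1.26 ± 0.25, limma adjusted p = 0.0115). With Igf1 M15481_g_at this made 2 of 17 members called higher and 0 called lower, where 6.41% and 1.05% of all tested probe sets were called. The call ended with spike-in scaling (adjusted p = 0.0835), and also when unloaded control 2 (0.0657) or unloaded healing 1 (0.0785) was left out. Between controls Igfbp6 fell 2.94-fold in unloaded against loaded rats (log2 -1.55 ± 0.25, limma adjusted p = 0.00295). Here too 2 of 17 members were called lower and 0 higher, where 6.22% and 0.591% of all were called, and the Igfbp6 call held under all 19 alternatives (adjusted p = 0.00181 to 0.0298). The unloaded controls also had the lowest fibroblast, macrophage and skeletal muscle marker sums, as described above, and their part in these values was not tested.

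Unloading within healing ligament gave Igfbp6 a difference of 0.89 ± 0.25 (1.86-fold, limma adjusted p = 0.160). It passed under 0 of 20 alternatives (adjusted p = 0.112 to 0.602). Against loaded controls, unloaded healing read -0.30 ± 0.25, with a 95% interval of -0.87 to 0.27 (limma adjusted p = 0.953). In neither comparison was a member called with limma at the adjusted threshold. At an unadjusted p under 0.05 there were 5 of 17 members for unloading in healing, where 10.9% of all tested probe sets lay, and 2 of 17 for unloaded healing against loaded control, where 5.55% lay. After adjustment, 0.763% of all tested probe sets were called higher and 0.858% lower for unloading in healing, and 0.0572% higher and 0.0191% lower for unloaded healing against loaded control.

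The healing effect on Igfbp6, against the control of the same loading, was a fall in loaded and a rise in unloaded rats. Those controls differed in surgery as well as loading, since the unloaded ones had no operation. Against loaded control, loaded healing read -1.19 and unloaded healing -0.30 log2 units, the latter not called. The difference between the effects was 2.45 ± 0.36 log2 units (limma adjusted p = 0.00166), with each group's arrays apart from the other's in both effects. It held under all 18 alternatives, at 1.87 to 2.67 (adjusted p = 0.00113 to 0.0408). Igfbp6 and Igf1 M15481_g_at were the 2 of 17 members called higher in this test and 0 were called lower, where 4.52% and 0.324% of all tested probe sets were called. The unloaded control and loaded healing arrays enter it with the same sign, and the low unloaded control signal contributes to it directly.

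**Figure D3:**
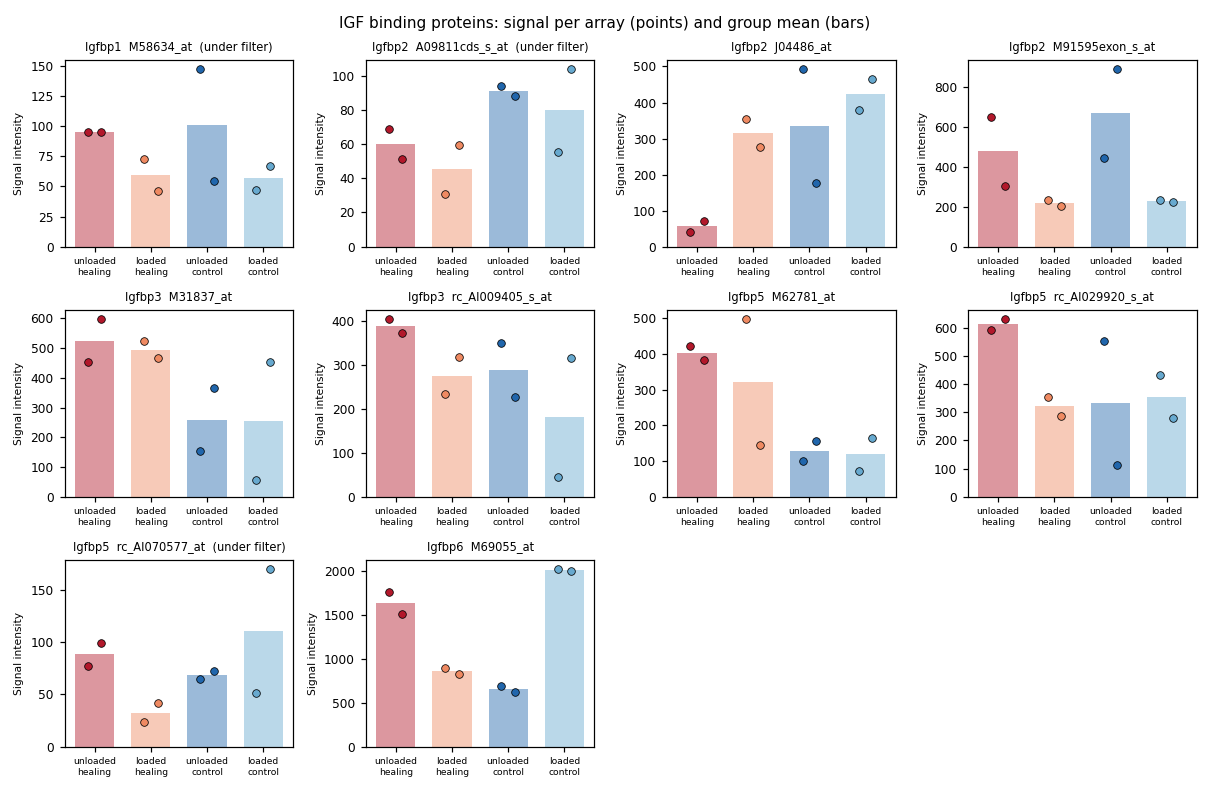
Signal intensity (linear scale, starting at 0) of the 10 probe sets of Igfbp1, Igfbp2, Igfbp3, Igfbp5 and Igfbp6 in the 4 groups. Points are single arrays (n = 2 per group) and bars are group means. Igfbp6 separated all 4 groups, with loaded control highest (2020.5 and 1996.7), and both Igfbp3 probe sets were lowest on loaded control 1.

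Igfbp2, a binding protein abundant in fetal tissue and serum, had probe sets that disagreed. J04486_at read 40.5 and 71.7 in unloaded healing, 354.7 and 275.8 in loaded healing, 493.9 and 175.4 in unloaded controls, and 379.7 and 466.6 in loaded controls. Both unloaded healing arrays were below all 6 others, a pattern of 1 of 17 tested members and 3.32% of all tested probe sets. The log2 difference was -1.83 ± 0.59 against loaded healing (limma adjusted p = 0.222), -1.78 ± 0.59 against unloaded control (limma adjusted p = 0.116) and -2.21 ± 0.59 against loaded control (4.64-fold lower, limma adjusted p = 0.463). These values did not pass.

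M91595exon_s_at of Igfbp2 was instead higher in unloaded rats. It read 652.6 and 306.5 in unloaded healing, 234.0 and 201.6 in loaded healing, 444.1 and 893.6 in unloaded controls, and 236.6 and 225.9 in loaded controls. All 4 unloaded arrays lay above all 4 loaded arrays, with differences of 0.91 ± 0.53 in healing (limma adjusted p = 0.603) and 1.29 ± 0.53 in control ligament (limma adjusted p = 0.241). The dim A09811cds_s_at spanned 30.8 to 104.2.

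Igfbp3, the main IGF carrier of the circulation, read low on 1 sham array. M31837_at had 452.0 and 598.6 in unloaded healing, 522.8 and 466.5 in loaded healing, 154.6 and 364.4 in unloaded controls, and 56.7 and 452.3 in loaded controls. The second probe set, rc_AI009405_s_at, had 406.2 and 374.6 in unloaded healing, 235.0 and 317.8 in loaded healing, 350.2 and 226.7 in unloaded controls, and 44.6 and 317.3 in loaded controls. Loaded control 1 was the lowest of 8 arrays on both, and loaded control 2 lay within the healing range. Loaded injury gave 1.26 ± 0.72 and 0.82 ± 0.67 log2 units (limma adjusted p = 0.590 and 0.760).

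Igfbp5, a binding protein that also attaches to extracellular matrix, passed in no comparison on either tested probe set. M62781_at read 422.2 and 384.2 in unloaded healing, 498.8 and 145.9 in loaded healing, 100.5 and 155.1 in unloaded controls, and 72.1 and 165.0 in loaded controls. rc_AI029920_s_at read 592.1 and 631.2 in unloaded healing, 355.3 and 287.1 in loaded healing, 552.4 and 113.0 in unloaded controls, and 430.9 and 277.6 in loaded controls. On both, each unloaded healing array lay above every control array. Against unloaded control the differences were 1.39 ± 0.65 and 1.09 ± 0.62 (limma adjusted p = 0.279 and 0.377). Against loaded control they were 1.51 ± 0.65 and 0.74 ± 0.62 (limma adjusted p = 0.871 and 0.953). The dim rc_AI070577_at spanned 23.8 to 170.1, and the liver-type Igfbp1, on M58634_at, spanned 46.1 to 147.9. Without the filter, 0 of the 9 dim members were called by limma in any comparison, and at most 3 of 9 had an unadjusted p under 0.05, for unloading in healing, where 9.37% of all probe sets in that fit did.

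**Figure D4:**
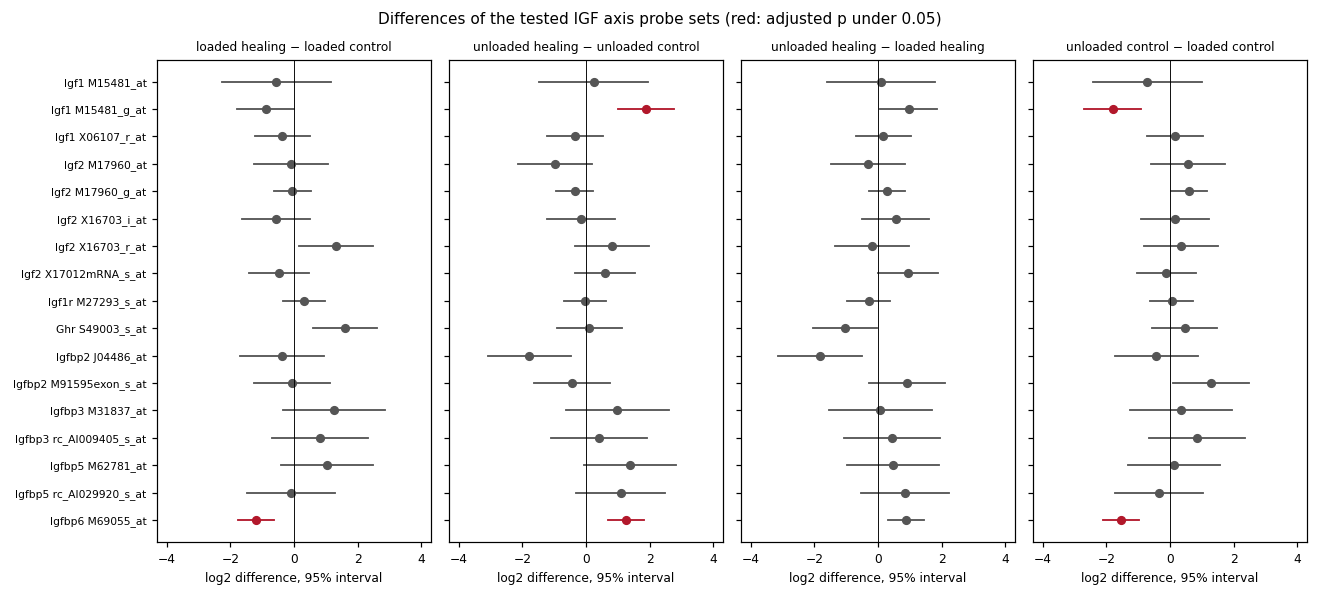
Log2 differences of the 17 tested IGF axis probe sets (points) with 95% intervals (lines) from the limma model, in 4 pairwise comparisons of 2 arrays each. Red marks an adjusted p under 0.05: Igfbp6 in 3 comparisons and Igf1 M15481_g_at in 2.

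Taking the 17 tested members as a list, the arrays of the compared groups did not overlap in 9 for injury in loaded rats (39.7% of all tested probe sets), 11 for injury in unloaded rats (52.2%), 11 for unloading in healing (39.7%), 7 for unloading in controls (51.1%) and 9 for unloaded healing against loaded control (32.3%). The median log2 difference was -0.10 for injury in loaded rats (all tested -0.03), 0.24 for injury in unloaded rats (all -0.23), 0.29 for unloading in healing (all 0.06) and 0.15 for unloading in controls (all 0.23). The direction for unloading in controls turned to -0.03 with quantile normalization and -0.10 with median centring. With spike-in scaling, that for unloading in healing turned to -0.20 (all -0.40) and that for injury in loaded rats to 0.26 (all 0.34). The members above 0 numbered 6 of 17 for injury in loaded rats (47.5% of all tested probe sets), 10 for injury in unloaded rats (37.2%), 12 for unloading in healing (53.9%) and 11 for unloading in controls (64.8%). With spike-in scaling they numbered 11 (73.3%), 9 (29%), 8 (23.6%) and 11 (69.3%) in the same order.

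Downstream of the receptors and around the ligands, 50 further genes of growth hormone and IGF signalling were listed, and 31 had a tested probe set. With limma, 0 of 31 rose and 0 fell in each of the 6 comparisons, beside the adjusted shares of all tested probe sets given above. At an unadjusted p under 0.05 there were 2 of 31 for loaded injury (11.7% of all tested probe sets), 4 for unloaded injury (19.1%), 1 for unloading in healing (10.9%), 3 for unloading in controls (17.8%), 0 for unloaded healing against loaded control (5.55%) and 1 for the difference of effects (12.9%). Jak2, the kinase bound to the growth hormone receptor, had the largest difference in loaded injury (-1.07 ± 0.82) and in unloaded injury (-1.14 ± 0.82). Next were the cytokine-signalling inhibitor Socs3 (0.86 ± 0.93, loaded) and the transcription factor Stat5b (-1.06 ± 0.55, unloaded). For unloading in healing these were the adaptor Grb14 (1.02 ± 0.72) and the lysosomal protease Ctsd (-0.94 ± 0.47). For unloading in controls they were Socs3 (1.39 ± 0.93) and the transcription factor Stat5a (1.16 ± 0.72). For unloaded healing against loaded control they were the kinase Map2k1 (-0.80 ± 0.39) and Stat5b (-0.76 ± 0.55). For the difference of effects they were Tsc2, an inhibitor of mTOR signalling (1.65 ± 1.05), and Socs3 (-1.61 ± 1.32). The insulin receptor Insr, the closest relative of Igf1r, read 1048.0 and 649.7 in unloaded healing, 1057.9 and 644.2 in loaded healing, 723.9 and 828.5 in unloaded controls, and 1223.7 and 486.2 in loaded controls. Its groups overlapped in every pairwise comparison.

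Among 4174 probe sets of other genes, those most like Igfbp6 over the 8 arrays were Atp5f1e, a subunit of mitochondrial ATP synthase (Pearson r = 0.988), the antioxidant enzyme Gpx1 (0.975) and the ribosomal protein Rps10 (0.969). Over the 6 arrays without the unloaded controls r was 0.978, 0.972 and 0.947. Atp5f1e read 2071.3 and 1831.6 in unloaded healing, 487.7 and 420.1 in loaded healing, 222.8 and 206.4 in unloaded controls, and 1973.1 and 2572.6 in loaded controls. Low signal in loaded healing and in unloaded controls was thus shared by these probe sets. For Igf2 M17960_g_at the most alike were the neural transcription factor Pou3f2 (0.958), the basement membrane collagen Col4a3 (0.953) and rhodopsin kinase Grk1 (0.934). Without the unloaded controls these were lower, at 0.942, 0.875 and 0.757. For Igf1r M27293_s_at the most alike were the adiponectin receptor Adipor2 (0.95), the smooth muscle protein Tagln (0.940) and the translation factor Eif3b (0.937). Over the 6 arrays without the unloaded controls they stood at 0.961, 0.916 and 0.97. These correlations share arrays and scaling and were picked as the highest of all compared, so they are descriptions only.

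**Figure D5:**
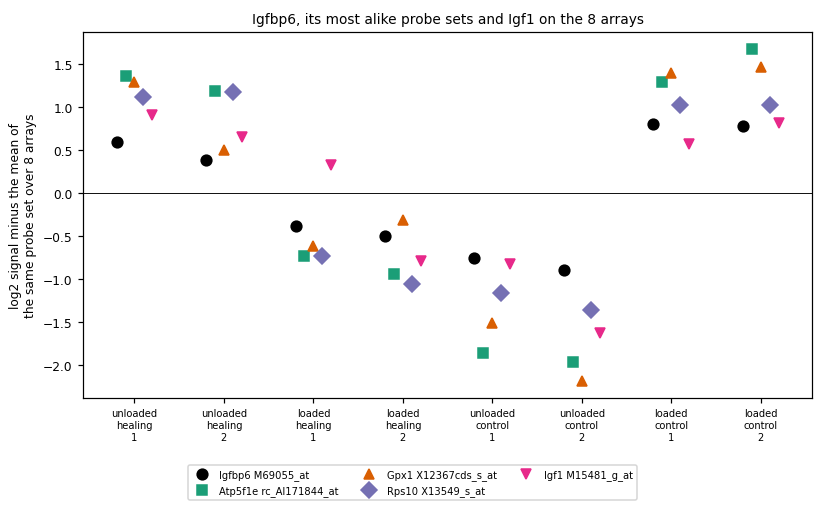
Log2 signal of Igfbp6, its 3 most alike probe sets and Igf1 M15481_g_at on each of the 8 arrays, each minus its own mean over the arrays, so that patterns and not levels are compared. All lie low on the unloaded control arrays and high on the unloaded healing and loaded control arrays.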

How the data were processed

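Total RNA of rat medial collateral ligament was measured on 8 one-colour arrays. The authors deposited 1 signal intensity per probe set and array, on a linear scale and already brought to a common level: the 2% trimmed mean was 500.3 to 500.6 throughout. How probes were summarised is not given in the sources used here. Every column was used. Median signals ran from 238.7 to 315.9, and the number of arrays limits the precision.

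Genes were named from the platform's probe annotation, and all 26 member probe sets matched RefSeq (GRCr8) by Entrez identifier, 26 with an unchanged symbol. Letters before "_at" mark probe sets designed under relaxed rules, some of which can match related transcripts. After removal of 59 control probe sets, 45.8 (the 10th percentile of the signals) was added, log2 was taken and the dimmest 40% by mean were dropped.

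Group means were estimated with limma 3.58.1 (R 4.3.3), using empirical Bayes variances with an intensity trend and 4 residual degrees of freedom. Tests were two-sided, with Benjamini-Hochberg adjustment over 5244 probe sets within each of 6 contrasts and a threshold of 0.05. The fit was tested on data simulated with normal errors, for injury in loaded rats. It recovered 16% of log2 changes of 1, 72% of those of 2, 92% of those of 3 and 100% of those of 4. Of the calls, 6.04% were false. Changes of 1 log2 unit were thus mostly missed, so a difference that did not pass is not shown to be absent.

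Every member probe set was named. Pathway genes were named where they passed, otherwise the 2 largest differences per contrast, and Insr was added after its values were seen. Alike probe sets were the 3 with the highest Pearson correlation to the brightest probe set of each role. Members and lists were chosen with earlier results of these data known. Alternatives were quantile normalization, median centring, scaling to 6 spike-in control probe sets, a floor, a 4 times larger offset, no filter or one at 60%, a variance prior without trend or robust, a replicate block, the compared groups alone, a fit without the unloaded controls, and leaving out each array. A group left with 1 array was taken to vary as the others do.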

Additional observations from a re-analysis of the deposited data

Results flagged for a closer look

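The healing effect on Igfbp6 M69055_at differed between unloaded and loaded rats by 2.45 log2 units in the limma interaction test (adjusted p = 0.00166), with a rise in unloaded rats and a fall in loaded rats on all arrays. The healing effect on Igf1 M15481_g_at differed by 2.77 log2 units (limma adjusted p = 0.0160), with a called rise in unloaded rats and -0.89, not called, in loaded rats. Both values rest on the unloaded control arrays, from rats with no operation. Their ligament fibroblast marker sum was 2489 and 2784, against 84510 and 104717 in loaded controls. Their macrophage and skeletal muscle marker sums were also the lowest, although the macrophage marker Cd14 was highest there. The top of their intensity range was lower as well, and both probe sets were bright. Igfbp6 M69055_at lay at the 89.3rd and Igf1 M15481_g_at at the 86.7th percentile of mean signal. The brighter Igf2 M17960_g_at, at the 95.3rd, did not read lowest on those arrays. The part of surgery, of these sums and of the narrower range in both values was not tested. Groups of 2 arrays are too small for a check of single outlying arrays.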

How the results depend on the processing

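The number of member probe sets called in loaded injury was 1, and it was 0 with quantile normalization, median centring, spike-in scaling, a floor in place of the offset, no filter, a variance prior without the trend and the compared groups alone, and 0 to 0 over the left-out arrays. In unloaded injury it was 2, against 1 with spike-in scaling (Igf1 alone), 1 with a variance prior without the trend (Igfbp6 alone) and 0 to 2 over the left-out arrays. For unloading in controls it was 2, against 1 with the variance prior without the trend and 1 to 2 over the left-out arrays. For the difference of effects it was 2, against 1 with that prior, 1 with spike-in scaling and 1 to 2 over the left-out arrays. It stayed 0 in both other contrasts under every alternative run. With the replicate number as a block the counts were 1, 2, 2 and 2 in these 4 contrasts and 0 in both others, so the block changed no call. Deviations of same-numbered arrays correlated at 0.159, 0.184 and 0.204 in the 3 pairs of groups without the unloaded controls and at 0.000779 to 0.0144 in the 3 with them. With 2 numbers per group and no label that ties them, the numbers were not taken as pairing, and a pairing among the other 3 groups was not settled. Of 1704 values of the other 15 tested members under alternatives, 1632 moved by less than 1 SE without a call, 71 moved further and 1 was called (Igf2 M17960_at in unloaded injury without unloaded healing 1). The direction was reversed in 0 cases that involved a call. Spike-in scaling moved the median of all probe sets by over 0.1 log2 units: it was 0.34 for loaded injury, -0.40 for unloaded injury and for unloading in healing, and -0.70 for the difference of effects. The causes of these changes were not tested. Low signal limits the 9 members under the filter.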
